A study of Mus musculus with 8 samples.

Results

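The 4 sites described here lie at Chd9, Hexim1, Cdc20b and Plekhh3. They were chosen because a PEG3 antibody peak was listed there in both genotypes and was higher per kept tag in wild-type than in Peg3 knockout cells, so the direction of that difference was fixed by the choice and is given without a test. Peaks were taken from the deposited tables if they overlapped the RefSeq gene body or 10 kb on either side. This gave 8 of the 581 listed peaks: 4 of 152 in the wild-type PEG3 table, 4 of 163 in the knockout PEG3 table, 0 of 173 in the wild-type H3K9me3 table and 0 of 93 in the knockout H3K9me3 table. As pairs they are 4 of 62 PEG3 sites shared between the genotypes. A run of the 62 lies in the targeted gene Peg3, with wild-type over knockout height ratios of 0.714 to 1.11. Each of these is counted, and the wild-type peaks starting at 6725322 and 6725671 have the same knockout partner. The 62 are therefore a count of peaks and not of separate loci.

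The cells were primary fibroblasts from C57BL/6 mouse embryos of 14.5 days post coitum, either wild type or Peg3 knockout, and each genotype gave 1 ChIP-seq library with a PEG3 antibody, 1 with an antibody against H3K9me3 and 1 sequenced input (chromatin with no antibody step). The 4 input samples are this input listed once for each antibody, since the labels give the same raw data for both. The labels do not name the knockout allele, the sex or the number of embryos. With 1 library per group, no difference could be set against replicate error, and intervals (95%) cover counting error only. The PEG3 libraries kept 21396407 tags in wild type and 16986250 in knockout, and their inputs 24305045 and 26470256. At the targeted gene, Peg3 itself, 13 PEG3 peaks were listed in wild type and 19 in knockout, so the targeted gene gives no check of the labels here.

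Peg3 is an imprinted gene expressed from the paternal allele, and it encodes a large protein with Krüppel-type zinc fingers, modules that bind DNA. An antibody peak marks a place where more fragments were recovered than the input gives, and a peak listed in the knockout was recovered from cells labelled as lacking the gene. The genes at these sites have different known roles. CHD9 is a chromatin remodeller of the chromodomain helicase family. HEXIM1 holds the elongation kinase P-TEFb inactive together with the 7SK RNA, and its gene has no introns. CDC20B is a relative of the cell cycle protein CDC20, known from multiciliated cells. PLEKHH3 carries pleckstrin homology, MyTH4 and FERM domains. GPX8, whose gene lies inside Cdc20b, is a glutathione peroxidase of the endoplasmic reticulum membrane.

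Of the 4 sites, 3 lay within 1 kb of an annotated gene start and 1 lay deep inside a gene. The sequences next to these starts are shown because they place the peaks against the genes. They come from the RefSeq promoter table (build GRCm38.p6, the mm10 coordinates), run 5′ to 3′ on the strand of the gene and stop at the base before the gene body.

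At Hexim1 (chr11:103116075-103116324, plus strand), capitals mark the only TATAA on the gene strand, and the listed peaks begin 8 bases (wild type) and 9 bases (knockout) after the gene start that follows the last base.

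Hexim1: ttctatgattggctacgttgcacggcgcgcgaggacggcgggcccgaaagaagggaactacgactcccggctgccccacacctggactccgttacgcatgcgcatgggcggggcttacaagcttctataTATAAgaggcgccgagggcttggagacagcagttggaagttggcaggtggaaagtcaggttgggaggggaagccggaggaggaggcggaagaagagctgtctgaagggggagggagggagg

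Upstream of Plekhh3 (chr11:101171379-101171622, minus strand), capitals mark the 31 bases that lie inside the wild-type peak. None of the 244 bases lies in the knockout peak.

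Plekhh3: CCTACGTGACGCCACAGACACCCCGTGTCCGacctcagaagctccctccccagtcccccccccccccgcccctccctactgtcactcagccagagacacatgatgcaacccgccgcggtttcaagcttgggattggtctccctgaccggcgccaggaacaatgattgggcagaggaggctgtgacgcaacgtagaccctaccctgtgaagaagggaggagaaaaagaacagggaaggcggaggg

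Upstream of Gpx8 (chr13:113046431-113046638, minus strand), all 208 bases lie in both peaks, and capitals mark the 26 bases from the wild-type summit to the knockout summit.

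Gpx8: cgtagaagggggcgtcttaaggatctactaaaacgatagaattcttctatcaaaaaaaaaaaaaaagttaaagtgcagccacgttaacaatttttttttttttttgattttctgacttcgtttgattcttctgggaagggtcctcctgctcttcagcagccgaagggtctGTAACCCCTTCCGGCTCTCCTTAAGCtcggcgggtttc

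The 300-base promoter windows of these genes, from 250 bases before to 50 after the start, differed in composition. GC content was 61.0% at Hexim1, 64.3% at Plekhh3 and 45.3% at Gpx8, against a median of 52.7% over 32851 windows. The number of CG dinucleotides was 21, 16 and 13, against a median of 7. The Plekhh3 values are those of its start at 101171372. A second listed start of Plekhh3, at 101171302, has a window with 67.3% GC and 24 CG dinucleotides that overlaps neither peak. Short motifs were searched on both strands. TGGCT was found 2 times at Hexim1, 1 time at Plekhh3 and 1 time at Gpx8, and 63.4% of all windows hold it. CCAAT was found 1 time at Hexim1, where it overlaps a TGGCT, 2 times at Plekhh3 and 0 times at Gpx8 (37.4% of all windows). TATAA was found at Hexim1 and at neither of the others (24.9% of all windows), and GGGCGG was found 1 time each at Hexim1 and Plekhh3 (35.7% of all windows). Matches are described as letters and not as bound sites. The sequence under the Chd9 peaks was not analysed here.

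At Hexim1 (chromosome 11, 103116325 to 103119725) the peak covered the first part of the gene. It ran from 103116333 to 103117381 in wild type (1049 bp) and from 103116334 to 103117377 in knockout (1044 bp). The edges thus differed by 1 and 4 bp between the genotypes, while the summits, 226 and 252 bp after the gene start, differed by 26 bp. Summits lay within 30 bp at 3 of the 4 sites and at 34 of the 62 shared sites (54.8%). Both edges were within 5 bp at 11 of the 62 shared sites (17.7%), and Hexim1 was the 1 of the 4 sites among them. Hexim1 had the 4th widest peak in each list. The summit was covered by 98 fragments in wild type (79.6 to 119) and by 50 in knockout (37.1 to 65.9), or 4.58 and 2.94 FPM (fragments per 1000000 kept ChIP tags). The authors' fold enrichment, which divides the pileup by the local input background after adding 1 to both, was 18.3 in wild type and 23.3 in knockout. Height and fold therefore had opposite directions at Hexim1. The next protein-coding genes were Acbd4, an acyl-CoA binding protein gene 4134 bp from the wild-type peak, and Hexim2, the paralogue of Hexim1, 5879 bp away.

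At Cdc20b (chromosome 13, 113034975 to 113121019) the peak lay inside the gene body and over the start of Gpx8, which runs in the opposite direction (113042757 to 113046430). The wild-type summit was 11493 bp from the 5′ end of Cdc20b but 80 bp upstream of the Gpx8 start, and the knockout summit 11468 bp and 55 bp. The nearest annotated start was therefore that of Gpx8 in both genotypes. The peak ran from 113046191 to 113046772 in wild type (582 bp) and from 113046373 to 113046719 in knockout (347 bp). The summit was covered by 91 fragments in wild type (73.3 to 112) and 37 in knockout (26.1 to 51.0), or 4.25 and 2.18 FPM. The authors' fold was 17.0 and 11.8. The shorter knockout peak was nested in the wild-type peak, and both summits lay just outside the Gpx8 gene body.

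At Plekhh3 (chromosome 11, 101162679 to 101171378, minus strand) the peak lay upstream of the gene, between it and the chemokine receptor gene Ccr10. The wild-type peak (101171592 to 101172228, 637 bp) ended 214 bp from Plekhh3 and 770 bp from Ccr10. The knockout peak (101171686 to 101171815) was 130 bp wide and lay within the wild-type one, 308 bp from Plekhh3. The summits lay 229 bp apart, 602 bp (wild type) and 373 bp (knockout) upstream of the gene's 5′ end. The other 3 sites had summits 21 to 26 bp apart. The summit was covered by 44 fragments in wild type (32.0 to 59.1) and 16 in knockout (9.15 to 26.0), or 2.06 and 0.942 FPM. Because the summits differ, these values do not describe the same base. The authors' fold was 6.28 and 6.26, a ratio of 1.004, so the difference in height was not seen in the fold. Cntnap1, a protein of the axon-glia junction, lay 2389 bp from the wild-type peak, and Tubg2, a gamma-tubulin gene, 9805 bp.

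At Chd9 (chromosome 8, 90828302 to 91054516) the peak lay far inside the gene, with the wild-type summit 126605 bp from the 5′ end and 22658 bp from the nearest annotated start, a second start of Chd9. It ran from 90954185 to 90955188 in wild type (1004 bp) and from 90954460 to 90955091 in knockout (632 bp), with summits 21 bp apart. The summit was covered by 94 fragments in wild type (76.0 to 115) and 27 in knockout (17.8 to 39.3), or 4.39 and 1.59 FPM. The authors' fold was 17.3 and 11.7. No other protein-coding gene lay within 10 kb. The wild-type height at Chd9 lay within the counting intervals of Hexim1 and Cdc20b. Its knockout height was the lowest of these 3, with an interval that overlapped that of Cdc20b and Hexim1.

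**Figure D1:**
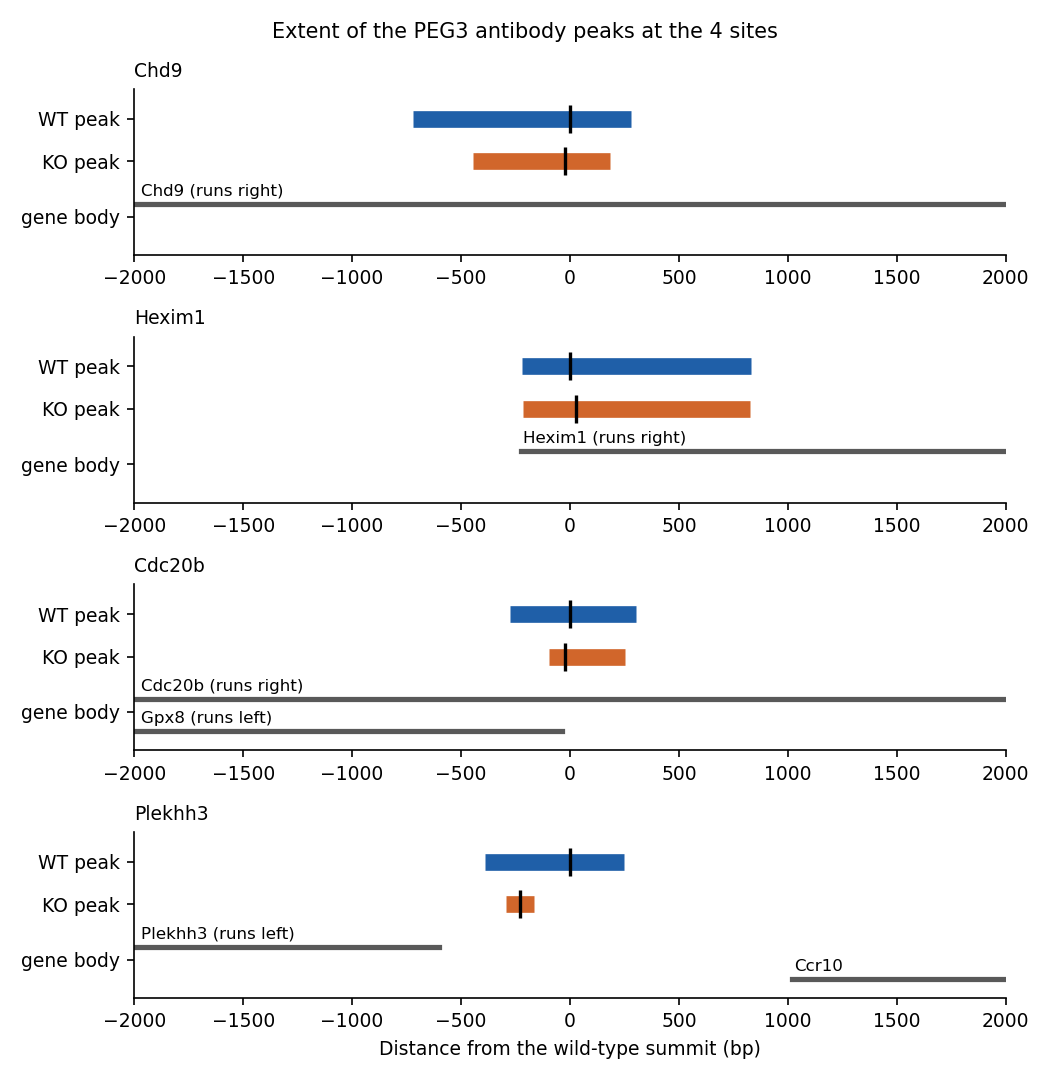
Extent of the PEG3 antibody peaks in wild-type (WT) and knockout (KO) cells, as distance in bp from the wild-type summit, with black ticks at the summits and grey lines for RefSeq gene bodies within 2000 bp. The peaks at Hexim1 have nearly the same edges, the knockout peaks at the other 3 sites lie within the wild-type ones, and the Cdc20b peaks cover the end of the Gpx8 body where that gene starts.

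The 4 peaks were wider in wild type, by 5 bp at Hexim1 and by 1.59 times at Chd9, 1.68 times at Cdc20b and 4.90 times at Plekhh3. Over the shared sites the wild-type peak was the wider one at 29 of 62 (46.8%), with a median width ratio of 0.996. Width follows from the same fragments as the height that chose the sites, so this count is a description. No summit came near the limit set by keeping 1 tag per position and strand, which is 208 fragments in wild type and 198 in knockout. The highest value, at Hexim1, was 47.1% of that limit.

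The wild-type over knockout ratio of height per kept tag was 2.76 at Chd9 (1.79 to 4.41) and 2.18 at Plekhh3 (1.21 to 4.14). It was 1.95 at Cdc20b (1.32 to 2.94) and 1.56 at Hexim1 (1.10 to 2.23). All 4 ratios exceeded 1.5-fold, as did those of 15 of the 62 shared sites (24.2%). The intervals at Plekhh3, Cdc20b and Hexim1 include 1.5. Since the sites were picked on this ratio, nothing is read from the count. Per bp of fragment length, which was longer in wild type, Hexim1 was at 1.48 and so under that fold. None of the 4 was at least 1.5-fold higher in knockout, as 8 of the 62 were (12.9%). By the authors' fold 0 of the 4 were at least 1.5-fold higher in wild type (6 of 62, 9.68%) and 0 in knockout (14 of 62, 22.6%). In the order of ratios over the shared sites they stood 1st, 3rd, 6th and 14th. Sites of similar ratio outside the choice were one on chromosome 13 at 34537084 (32 and 10 fragments, ratio 2.54), one at Anxa7, an annexin gene (28 and 11 fragments, ratio 2.02), and one at Sephs1, a selenophosphate synthetase gene (23 and 12 fragments, ratio 1.52). Their counting intervals include 1 at Anxa7 (0.975 to 4.50) and Sephs1 (0.727 to 3.36) but not at 34537084 (1.22 to 5.79). The choice therefore holds some but not all of the sites with a height ratio of at least 1.5. Hexim1, Chd9 and Cdc20b stood 4th, 5th and 7th by wild-type height among the 62, and Plekhh3 stood 19th.

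**Figure D2:**
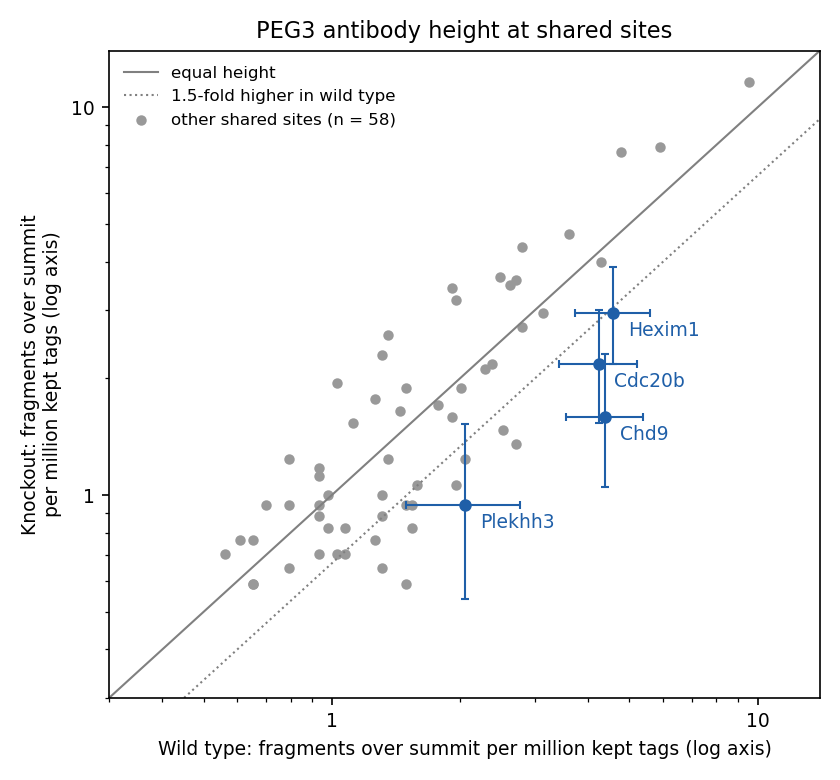
Fragments over the summit, in FPM, in wild type (horizontal log axis) and knockout (vertical log axis) at the 62 shared sites, with exact Poisson 95% intervals for the 4 sites in blue. Hexim1, Cdc20b and Chd9 lie between 4.25 and 4.58 in wild type and between 1.59 and 2.94 in knockout, and Plekhh3 lies lower in both.

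For each site the shared site with the most similar pair of heights (distance in log2 FPM, over 38 candidates near named genes) was looked up. It was in Zswim6, a zinc finger gene, for Plekhh3 (1.96 and 1.06 FPM in wild type and knockout, distance 0.18). For Chd9 it was in Ddah2, an enzyme gene of methylarginine breakdown (2.71 and 1.35 FPM, distance 0.73). For Hexim1 it was the longest peak in Peg3 itself (2.71 and 3.59 FPM, distance 0.81), and for Cdc20b one in Dazap2 (2.29 and 2.12 FPM, distance 0.89). Only the Zswim6 site was close to its partner. Their wild-type over knockout ratios were 1.85 in Zswim6, 2.0 in Ddah2, 1.08 in Dazap2 and 0.755 in Peg3, and these follow in part from the matching on both heights.

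The input background recovered at these sites also had higher values in wild type than in knockout. The peak caller tests a summit against the largest of the input densities in a window of the fragment length, in 1 kb, in 10 kb and over the genome. Dividing out its scaling gave whole numbers of input tags (to within 0.01) at all 8 summits. At Chd9 the background came from 49 input tags per kb in wild type (36.3 to 64.8) and 22 per kb in knockout (13.8 to 33.3). At Plekhh3 it came from 7 tags over the fragment length of 104 bp in wild type (2.81 to 14.4) and 27 tags per kb in knockout (17.8 to 39.3). At Hexim1 it came from 5 tags over 104 bp in wild type (1.62 to 11.7) and 187 tags over 10 kb in knockout (161 to 216), and at Cdc20b from 5 tags over 104 bp in wild type and 35 per kb in knockout (24.4 to 48.7). A whole number of tags in 1 kb can equally be 10 times as many in 10 kb, at the same density.

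On a common scale the wild-type input held 49, 67.3, 48.1 and 48.1 tags per kb at Chd9, Plekhh3, Hexim1 and Cdc20b, and the knockout input 22, 27, 18.7 and 35. All 8 values lay above the genome mean of 13 tags per kb in wild type and 14.2 in knockout, by 3.70 to 5.18 times in wild type and 1.32 to 2.47 times in knockout. Per kept input tag the wild-type over knockout ratio of the background was 2.55 at Chd9 (1.51 to 4.43), 2.85 at Plekhh3 (1.05 to 6.71), 2.94 at Hexim1 (0.944 to 6.99) and 1.57 at Cdc20b (0.481 to 4.03). The intervals at Hexim1 and Cdc20b include 1. These ratios also carry the fragment length, which was longer in wild type. Per bp of window they were 2.43 at Chd9, 2.71 at Plekhh3, 2.80 at Hexim1 and 1.496 at Cdc20b. Where both inputs are at the genome mean, as at 34537084 on chromosome 13, the ratio is 1.0505. The lower limit at Plekhh3, 1.0486, lies under that value. A difference in input was therefore not detectable at Plekhh3, Hexim1 or Cdc20b at this depth. Taking the largest window also raises values that rest on few tags. Counted per kept input tag, with the fragment length carried, the ratio was at least 1.5 at 4 of 4 sites. This held at 28 of the 62 shared sites (45.2%). Per bp of window Cdc20b, at 1.496, would not be counted. Per kept input tag the background was at least 1.5-fold higher in knockout at 0 of the 4 and at 1 of the 62 (1.61%). The background was a small part of the pileup, from 4.49% to 14% in wild type and from 2.38% to 10.7% in knockout. Subtracting it left the height ratios at 2.78, 2.10, 1.52 and 1.98 for Chd9, Plekhh3, Hexim1 and Cdc20b. Dividing by it instead, with no 1 added, gave ratios of 1.08, 0.765, 0.529 and 1.24.

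**Figure D3:**
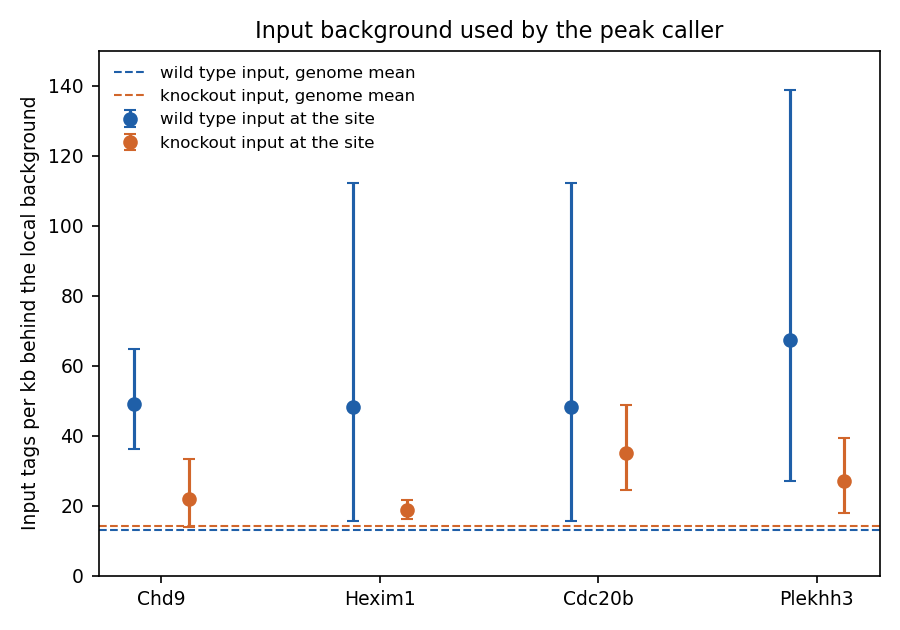
Input tags per kb behind the local background at each site in wild type and knockout, with exact Poisson 95% intervals for counting error, and dashed lines at the mean over the effective genome. Wild-type values are 48.1 to 67.3 and knockout values 18.7 to 35, and the wide wild-type intervals belong to values that rest on 5 or 7 tags.

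Across the 62 shared sites, height ratio and background ratio were weakly correlated. Pearson's r of their log2 values was 0.43 and Spearman's rho 0.48, and without the 4 chosen sites they were 0.36 and 0.43 (n = 58). Leaving out the 4 chosen sites and also those at the genome-wide background floor or near the duplicate limit, they were 0.46 and 0.50 (n = 32). The points share the same 4 libraries, so these are descriptions with no test. The median background ratio was 1.29 at the other 58 sites and 2.05 at the 10 of them whose wild-type summit lay within 1 kb of an annotated start, where the median height ratio was 1.31. Near a start lay 3 of the 4 sites and 13 of the 60 shared sites on chromosomes with starts in the table (21.7%). The listed starts also lack some genes on these chromosomes, among them Acbd4, Hexim2, Ccr10 and Cntnap1. The genes at the 4 sites are listed, so the 13 may be an undercount and the shares are not compared. The part of the input in the difference in PEG3 height was not tested.

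**Figure D4:**
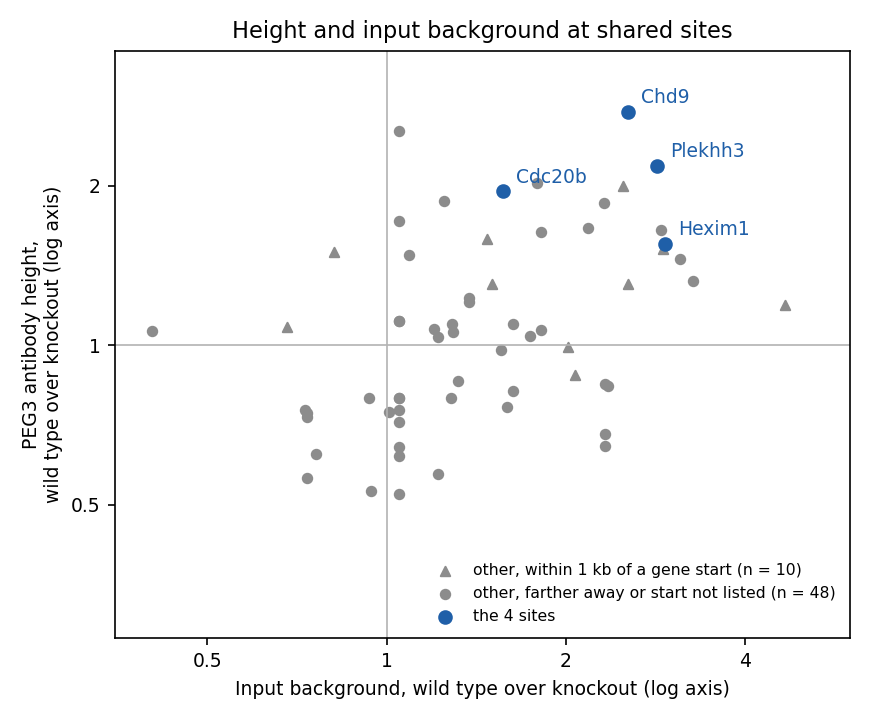
Wild-type over knockout ratio of the input background (horizontal log axis) against that of the PEG3 antibody height (vertical log axis) at the 62 shared sites. Triangles mark other sites within 1 kb of a listed gene start. The 4 sites lie in the upper right part, with background ratios of 1.57 to 2.94, among other sites that were also higher in wild type on both axes.

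Other genes of the same families were looked up in lists chosen for this purpose. Of 9 CHD remodellers, Chd3, a subunit of the NuRD complex, also carried a wild-type PEG3 peak, with 17 fragments and a fold of 3.98, and no knockout peak was listed there. Of 10 genes of the 7SK and P-TEFb system, Hexim1 and Hexim2 were near a peak in both genotypes, and it was the same peak. Of 19 genes of CDC20 and the anaphase-promoting complex, Cdc27 also carried PEG3 peaks, 1 in wild type with 22 fragments (1.03 FPM) and 2 in knockout, the higher with 33 fragments (1.94 FPM). Cdc27 thus had the opposite direction to Cdc20b. Of 8 multiciliation genes only Cdc20b, and of 7 MyTH4-FERM genes only Plekhh3, had a PEG3 peak within 10 kb. Over 21900 protein-coding genes 0.644% had a wild-type and 0.347% a knockout PEG3 peak within 10 kb. Each list holds a gene picked for its peak, so its share is not compared with these.

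No gene of the 5 lists had an H3K9me3 peak within 10 kb in either genotype. Over all protein-coding genes the share was 0.247% in wild type and 0.128% in knockout, so a count of 0 in lists of this size is not particular to them. The nearest H3K9me3 peak to the PEG3 site lay over 6 Mb away at each of the 4 sites, 6549 kb at Cdc20b in the knockout list, 12090 kb at Plekhh3, 14034 kb at Hexim1 and 35571 kb at Chd9 in the wild-type list. The H3K9me3 lists are sparse, with 4 (wild type) and 5 (knockout) peaks on chromosome 11, 21 and 5 on chromosome 8 and 18 and 16 on chromosome 13, so long distances are not particular to these sites. H3K9me3 is a histone mark of silent chromatin that usually covers broad domains, while the tables list sites of at least 10 fragments in wild type and 14 in knockout. A level of H3K9me3 below those limits at the 4 genes would not be listed. The next PEG3 peak of the same list lay at least 889488 bp away in wild type, as for 99 of the 151 wild-type peaks with another on their chromosome, and at least 468073 bp away in knockout, as for 70 of 163.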

How the data were processed

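ChIP-seq libraries of 4 ChIP samples and their inputs were used. Bowtie2, SAMtools and the build mm10 are named without versions, per the submitters' processing notes. Per the file headers, the authors called peaks separately in each ChIP library with MACS2 2.2.6 (q 0.05), with the input of the same genotype as control, kept 1 tag per position and scaled the larger library down. The deposited tables hold the pileup signal at the summit, the fold enrichment, and −log10 p-values and q-values, whose lost column names were identified from the values. Fragments are pileup divided by the ChIP scale, which is 1 for both PEG3 libraries. Background is (pileup + 1) divided by fold, minus 1. It was also divided by the input scale for input tags and for values per kept input tag. Shares of the pileup, and subtraction from or division into it, use the value without that division. For the PEG3 peaks, recomputed −log10 p values differed by at most 0.000102, and those of the H3K9me3 peaks were not recomputed.

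An overlap of 1 bp made a site shared, and the highest knockout partner was taken. Intervals are exact Poisson for counts and exact conditional for ratios. Gene positions and starts came from RefSeq tables of GRCm38.p6, which give no exons. The sites and gene lists were chosen with earlier results of these data known. Named genes are the 4 genes, protein-coding genes within 10 kb of their peaks, list genes with a peak within 10 kb and the most similar shared sites. The sites at Anxa7, at Sephs1 and on chromosome 13 were named after their values were seen. Functions for overlaps and ratio intervals were tested on simulated data. For backgrounds only the inversion of the fold formula was checked there, and the assignment of a window and tag count was not. Alternatives are given in the closing section. Versions were matplotlib 3.10.9, SciPy 1.17.1, pandas 2.3.3, NumPy 2.4.6 and Python 3.11.15.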

Additional observations from a re-analysis of the deposited data

How the results depend on the processing

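The height ratios kept their direction and stayed within their counting intervals without division by depth and per bp of fragment length. The same held after subtracting the background and after scaling to the median shared site. Each site has 1 knockout peak, so taking the nearest summit as partner could not change a ratio. At Hexim1, however, the ratio was 1.48 per bp of fragment length and 1.46 after the median scaling, both under the 1.5-fold used for counting. With the authors' fold in place of the height, the wild-type over knockout ratio was 1.48 at Chd9 and 1.004 at Plekhh3, both below the interval of the height ratio, and 0.786 at Hexim1, the opposite direction. With pileup over background and no 1 added, an alternative chosen after seeing the data, it was 1.08 at Chd9, 1.24 at Cdc20b, 0.765 at Plekhh3 and 0.529 at Hexim1. The last pair turned direction. The share of shared sites at least 1.5-fold higher in wild type was 9.68% by the authors' fold. These alternatives differ from the height by the input background that enters them. The authors' fold differs also by the 1 added to both pileup and background. The background ratios stayed within their intervals without division by depth and per bp of window. Per bp of window, also chosen after seeing the data, the one at Cdc20b was 1.496, just under the 1.5-fold used for counting. No summit at these sites had a background at the genome-wide floor, so leaving floor values out could not change the ratios. The peaks numbered 6 within the gene bodies alone, without those at Plekhh3, and 8 within 50 kb or at −log10 q of at least 3. Under a reciprocal overlap of 50% or summits within 100 bp, 3 of the 4 sites were shared, and Plekhh3 was not. No paired analysis was possible because each group has 1 sample and no model was fitted. Depth limits the wild-type input values at Hexim1, Cdc20b and Plekhh3, which rest on 5, 5 and 7 tags in the window the peak caller took.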
